A study of Mus musculus with 12 samples.

Results

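The comparison described here sets unstressed mouse astrocytes in which the glucocorticoid receptor gene was deleted against unstressed astrocytes that kept it. The labels call the animals with the deletion AGR cKO and those without it Cre-. The rule takes the 3 AGR cKO control libraries and the 3 Cre- control libraries, 6 of the 12 libraries of the series, and all genes. AGR cKO control animals carry a floxed receptor gene (Nr3c1 flox/flox) and the transgene Aldh1l1-CreERT2, in which the astrocyte promoter of Aldh1l1 drives a recombinase that tamoxifen switches on. Cre- control animals carry the floxed gene without the transgene, so both groups have loxP sites in Nr3c1 and neither is a wild type. Pups of both groups received 4-hydroxytamoxifen from postnatal day 5 to 7, and astrocytes were taken from the cerebral cortex at day 14 by immunopanning and magnetic beads. The other 6 libraries come from AGR cKO and Cre- pups of the same age, injected in the same way, that were kept from the dam for 3 hours a day from day 1 to 14 (ESD in the labels). The labels do not say whether each library is 1 animal, and p-values measure the spread between these samples.

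The glucocorticoid receptor is a transcription factor held in the cytoplasm by chaperones until corticosterone, the main glucocorticoid of rodents, binds it. The bound receptor enters the nucleus, attaches to DNA elements built from a pair of half-sites, and raises or lowers transcription nearby. Its classical induced genes include feedback regulators of the receptor, such as Fkbp5, and genes of metabolism, the circadian clock and inflammation control. Glucocorticoids circulate in the absence of imposed stress, so the comparison bears on the receptor's part in astrocyte transcripts at baseline. Only AGR cKO animals carry the transgene and its recombinase, so effects of these and of receptor loss cannot be told apart here.

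Polyadenylated RNA was read at a depth of 49803711, 45844294 and 43387146 counts in the AGR cKO control libraries and 43564295, 43659453 and 42603546 in the Cre- control libraries. Between 8.16% and 10.3% of a control library's counts fell on its 10 top genes. Astrocyte transcripts dominated: on the TPM scale, which corrects for transcript length, the glutamate transporter gene Slc1a3 stood at 5474 ± 87.2 in AGR cKO control and 5728 ± 612 in Cre- control (SD, n = 3 each), and Aldh1l1 at 416 ± 9.68 and 413 ± 37.8. Other cells were present too. The pericyte gene Rgs5 stood at 2215 ± 189 TPM in AGR cKO control and 1852 ± 736 in Cre- control, the microglial gene Csf1r at 55.5 ± 26.2 and 129 ± 82.7, the endothelial gene Cldn5 at 125 ± 57.7 and 254 ± 223, and the neuronal gene Rbfox3 at 1.20 ± 0.0458 and 0.907 ± 0.385. The library Cre- control 1 stood apart. Its 14 endothelial markers summed to 2336 CPM (counts scaled to library size and composition), against 449 to 944 CPM in the other 5 libraries, and results are therefore also given without it. In bulk samples, fewer cells of a type and less RNA per cell cannot be told apart.

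Nr3c1, the targeted gene (gene ID 14815, mm10 chromosome 18, 39410545 to 39519421), fell in AGR cKO control astrocytes. It had 102, 93.2 and 108 CPM in the AGR cKO control libraries, against 214, 210 and 237 CPM in the Cre- control libraries. The groups did not overlap, with means of 101 ± 7.45 CPM in AGR cKO control and 220 ± 14.6 CPM in Cre- control (SD, n = 3 each). The log2 fold change was -1.12 ± 0.12 (SE; adjusted p = 0.0167 in the edgeR fit over all 12 libraries). That call was lost without AGR cKO control 1, 2 or 3 (adjusted p = 0.11, 0.118 and 0.108 in edgeR), without Cre- control 2 or 3 (0.067 and 0.0749) and without Cre- ESD 2 (0.0554), while the log2 fold change stayed between -1.17 and -1.07. The gene count takes in all exons, and the deleted exon is not given in the labels. Of 15 annotated Nr3c1 transcripts, 8 averaged at least 100 counts in a group. Among these, 6 were lower on average in AGR cKO control, 2 of them in each AGR cKO library against each Cre- library. Transcript XM_030250338 went the other way without overlap, with 519, 236 and 231 counts in AGR cKO control and 33, 158 and 149 in Cre- control. NM_001361210 was also higher on average in AGR cKO control, with overlap.

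Across the genome the number of genes called between the genotypes depended on the method and on the libraries in the fit. In the edgeR fit over all 12 libraries 3 of 19163 genes passed an adjusted p under 0.05 (0.0157% of those tested), 2 higher (0.0104%) and 1 lower (0.00522%) in AGR cKO control. An unadjusted p under 0.05 was reached by 1958 genes (10.2%), 820 higher (4.28%) and 1138 lower (5.94%). With only the 6 control libraries in the fit, 31 of 18279 genes passed (0.17%), 10 higher (0.0547%) and 21 lower (0.115%). DESeq2 over all 12 libraries called 265 of 16904 (1.57%), 80 higher (0.473%) and 185 lower (1.09%), with 20 of the 31 genes among them. The groups did not overlap in 16.9% of genes tested, 8.54% with AGR cKO control higher and 8.39% with it lower. The count of 31 depended on single libraries. It was 230 of 18644 without Cre- control 1 (1.23%; 46 or 0.247% higher and 184 or 0.987% lower), with all 31 genes among them. It was 15 without Cre- control 2, 0 without Cre- control 3, and 1 without AGR cKO control 1, 2 or 3. Over all 12 libraries it was 63 without Cre- ESD 3. Lower genes outnumbered higher ones in the fit of 6, with and without Cre- control 1, and in DESeq2. The edgeR calls over all 12 libraries went the other way, with 2 higher and 1 lower. At an adjusted p under 0.1 in that fit, 6 were higher and 2 lower. The median log2 fold change of all genes tested was -0.01.

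**Figure D1:**
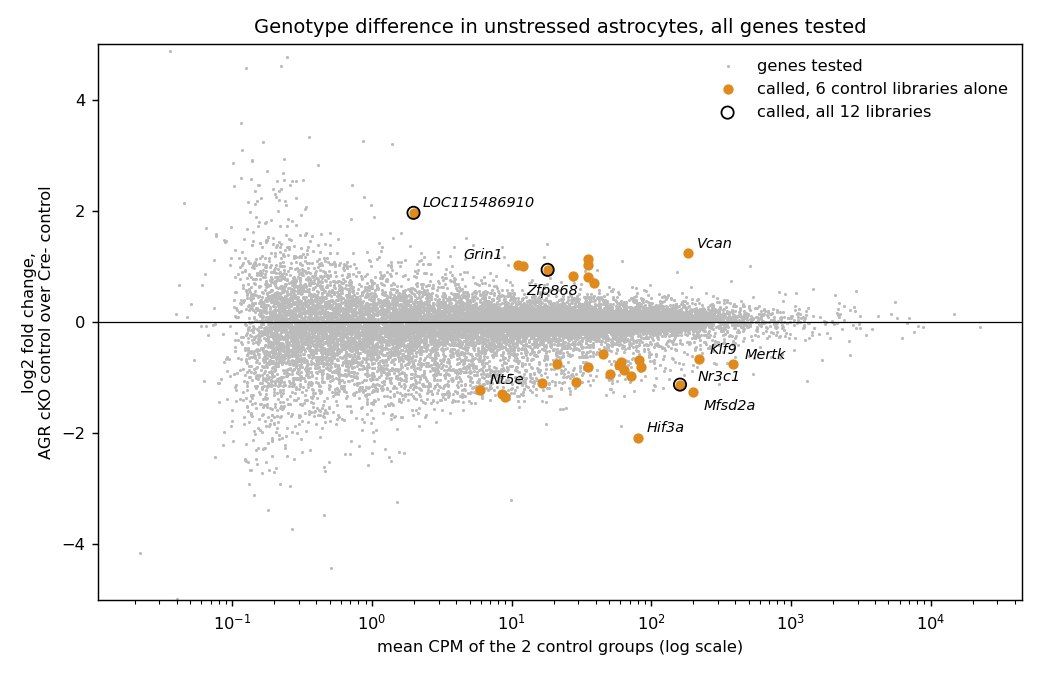
Mean level of each gene in the AGR cKO control and Cre- control groups (CPM, log axis) against its log2 fold change, AGR cKO control over Cre- control. Grey points are the genes tested, filled points the 31 called among the 6 control libraries, and rings the 3 called over all 12, both in edgeR. Outside the axis lie 21 genes beyond 5 in size, Gm15564 among them. Gm15564 aside, the called genes lie between -2.08 and -0.58 and between 0.70 and 1.96.

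Both other genes called by edgeR over all 12 libraries lie on chromosome 8 and were higher in AGR cKO control. Zfp868 (mm10 chromosome 8, 69610654 to 69625557), a zinc finger gene, had 24.8, 21.1 and 25.6 CPM in AGR cKO control, against 11.5, 12.1 and 13.7 CPM in Cre- control. It rose by 0.94 ± 0.12 on the log2 scale (edgeR adjusted p = 0.0396). LOC115486910 (mm10 chromosome 8, 60719256 to 60725882), a long non-coding RNA, had 3.64, 3.08 and 2.77 CPM in AGR cKO control and 0.741, 0.75 and 0.937 CPM in Cre- control, and rose by 1.96 ± 0.25 (edgeR adjusted p = 0.0396). Neither gene's groups overlapped. The 31 genes called among the control libraries lie on 17 chromosomes, with 4 on chromosome 8, where Gas6 and Rhou are the others. Chromosome 8 held 5.24% of all genes tested, and 17 of the 265 DESeq2 calls. Aldh1l1, whose promoter drives the transgene, had 437, 460 and 439 CPM in AGR cKO control and 377, 492 and 462 CPM in Cre- control, overlapping groups with a log2 fold change of 0.00 ± 0.13. Leaving out Cre- control 1 gave -0.10 for Aldh1l1. Both chromosome 8 calls were lost without any 1 of the 6 control libraries or of the AGR cKO ESD libraries, and without Cre- ESD 2 (adjusted p = 0.0588 to 0.21 for Zfp868 and 0.0588 to 0.212 for LOC115486910 in edgeR), with little change in size (0.89 to 1.02 for Zfp868 and 1.85 to 2.08 for LOC115486910).

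Genes that glucocorticoids are known to induce were lower in AGR cKO control as a group. The list was chosen with earlier results of these data known, so its counts describe the list and are not independent support. All 25 listed genes had a negative log2 fold change, with a median of -0.67, against 10105 of 19163 genes tested with a negative one. None of the 25 passed in edgeR over all 12 libraries. In the fit of the 6 control libraries 4 fell (Hif3a, Mfsd2a, Bcl6 and Klf9), where 0.115% of all genes fell. DESeq2 called 3 lower (1.09% of all genes), and 14 had an unadjusted edgeR p under 0.05 (5.94% of all genes did in that direction). In 14 of the 25 each AGR cKO library lay below each Cre- library, as in 8.39% of all genes tested. The summed level of the list was 1999 to 2143 CPM in AGR cKO control and 2904 to 3538 CPM in Cre- control. Without Cre- control 1 the median was -0.44 and 24 of 25 were lower. In the fit of the other 5 control libraries 11 of the 25 fell, against 0.987% of all genes: Hif3a, Sult1a1, Mfsd2a, Fkbp5, Tsc22d3, Mt1, Mt2, Bcl6, Per1, Klf9 and Sdc4. Of the fits that left out 1 control library, that fit called the most genes. It called 230, against 15 without Cre- control 2, 0 without Cre- control 3 and 1 without each AGR cKO control library. Calls from the fit without Cre- control 1 are given below for other genes as well, and carry the same limit.

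Hif3a, a subunit of the hypoxia-inducible factor family, had the lowest fold change of the list. It had 30.4, 31.9 and 29.9 CPM in AGR cKO control, against 103, 171 and 115 CPM in Cre- control. The AGR cKO libraries were close to each other, and the lowest Cre- library lay far above them. The log2 fold change was -2.08 ± 0.36 over all 12 libraries (edgeR adjusted p = 0.109) and -2.08 ± 0.18 in the fit of the 6 control libraries (edgeR adjusted p = 0.0192). The hypoxia-inducible factor pathway as a list did not share that shift. Of its 18 genes, Hif3a included, 7 were higher and 11 lower (median -0.04, and 0.04 without Cre- control 1). Hif1a, the oxygen-regulated subunit, was at 0.20 ± 0.08 and Car9, a carbonic anhydrase gene induced by hypoxia, at -1.24 ± 0.36, and neither passed in edgeR.

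Mfsd2a, which encodes a transporter of lysophospholipids that carry docosahexaenoic acid, had 103, 107 and 141 CPM in AGR cKO control and 260, 316 and 265 CPM in Cre- control. It fell in the fit of the 6 control libraries (-1.26 ± 0.14 in that fit, edgeR adjusted p = 0.0372; SE 0.30 and adjusted p = 0.23 over all 12). Klf9, a Krüppel-like transcription factor gene, had 176, 170 and 164 CPM in AGR cKO control and 257, 264 and 290 CPM in Cre- control (-0.67 ± 0.077 in the fit of 6, SE 0.26 over all 12). Bcl6, a gene for a transcriptional repressor, had 43.0, 42.5 and 44.9 CPM in AGR cKO control and 65.6, 79.7 and 77.1 CPM in Cre- control (-0.77 ± 0.086 in the fit of 6, SE 0.28 over all 12). For Klf9 and Bcl6 the edgeR adjusted p was 0.0372 over the 6 control libraries, and 0.398 and 0.38 over all 12. In these 3 genes no AGR cKO library reached the level of any Cre- library.

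Other classical glucocorticoid-induced genes did not pass in edgeR over 12 or over 6 libraries. Fkbp5, a co-chaperone gene that restrains the receptor, had 3.95, 4.04 and 3.54 CPM in AGR cKO control and 6.85, 9.53 and 7.17 CPM in Cre- control, groups that did not overlap (-1.03 ± 0.73; edgeR adjusted p = 0.677). Under ESD the library Cre- ESD 3 had 103 CPM of Fkbp5, against 3.35 to 11.1 CPM in the other 5. Tsc22d3, the gene of the leucine zipper protein GILZ, had 81.2, 87.1 and 93.5 CPM in AGR cKO control and 137, 156 and 189 CPM in Cre- control (-0.88 ± 0.31; edgeR adjusted p = 0.362). Sgk1, a kinase gene of ion transport, had 37.6, 42.3 and 65.9 CPM in AGR cKO control and 108, 51.0 and 74.6 CPM in Cre- control, with overlapping groups (-0.68 ± 0.29; edgeR adjusted p = 0.439). Zbtb16, a zinc finger gene, had 8.88, 11.3 and 9.21 CPM in AGR cKO control and 13, 10.8 and 11.3 CPM in Cre- control, which also overlapped (-0.25 ± 0.34; edgeR adjusted p = 0.866). The metallothionein gene Mt2 had 138, 147 and 155 CPM in AGR cKO control and 184, 284 and 283 CPM in Cre- control (-0.77 ± 0.20; edgeR adjusted p = 0.239), and Sult1a1, a sulfotransferase gene, had 9.83, 13.9 and 12.1 CPM against 19.8, 42.3 and 43.3 CPM (-1.56 ± 0.46; edgeR adjusted p = 0.282). Pdk4, Angptl4 and Errfi1, classical receptor targets in peripheral tissue, were at -0.05 ± 0.12, -0.10 ± 0.14 and -0.11 ± 0.21, the 3 values of the list nearest to 0.

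**Figure D2:**
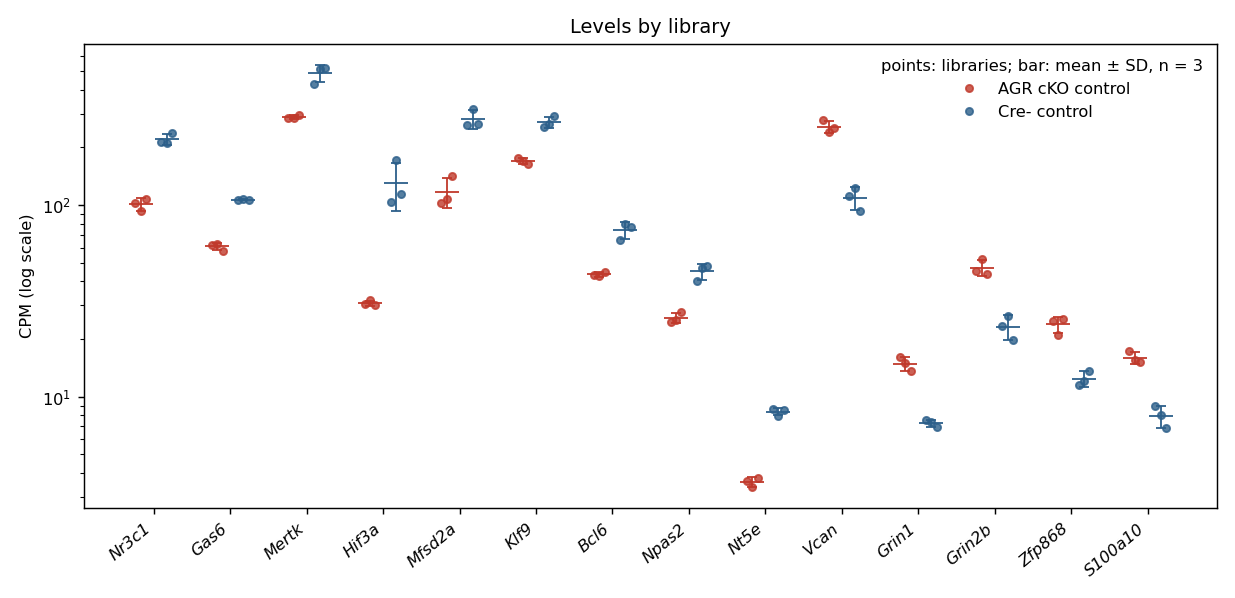
Level of 14 genes in each library (CPM, log axis), AGR cKO control to the left of Cre- control, with the mean and SD of n = 3 libraries. The first 9 genes, from Nr3c1 to Nt5e, are lower in each AGR cKO library than in any Cre- library, and the last 5, from Vcan to S100a10, are higher.

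The receptor's half-site is a run of 6 bases, TGTTCT, or AGAACA on the other strand, and its full element here is AGAACA and TGTTCT with 3 bases between them. Promoter windows of 300 bases, 250 before and 50 after a RefSeq start site (build GRCm38.p6, the sequence of mm10), were searched for both. Of the 31 genes called among the control libraries, 25 had a window, and 1 of these, Bcl6, held a half-site (4%), against 21.3% of all 27025 genes with a window and 16% of the 14022 that were also tested. Of 21 glucocorticoid-induced genes with a window, 4 held a half-site (19.0%): Sgk1, Bcl6, Tsc22d3 and Sult1a1. The full element stood in the windows of 3 genes of all 27025, of which 1 was tested, Sgk1. For each of these 4 genes the window with most half-sites is shown, since these are the matches within the list, with half-sites in capitals. Sgk1 (chr10:21993640-21993939, + strand, with the full element), Bcl6 (chr16:23981234-23981533, - strand), Tsc22d3 (chrX:140600473-140600772, - strand) and Sult1a1 (chr7:126676369-126676668, - strand, 2 half-sites) read 5′ to 3′:
Sgk1: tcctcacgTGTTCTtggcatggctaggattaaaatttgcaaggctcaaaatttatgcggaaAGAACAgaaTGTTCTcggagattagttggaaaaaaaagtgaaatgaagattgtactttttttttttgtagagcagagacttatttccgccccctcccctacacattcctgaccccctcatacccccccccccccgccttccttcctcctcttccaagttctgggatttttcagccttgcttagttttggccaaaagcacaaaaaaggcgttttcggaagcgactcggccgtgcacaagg
Bcl6: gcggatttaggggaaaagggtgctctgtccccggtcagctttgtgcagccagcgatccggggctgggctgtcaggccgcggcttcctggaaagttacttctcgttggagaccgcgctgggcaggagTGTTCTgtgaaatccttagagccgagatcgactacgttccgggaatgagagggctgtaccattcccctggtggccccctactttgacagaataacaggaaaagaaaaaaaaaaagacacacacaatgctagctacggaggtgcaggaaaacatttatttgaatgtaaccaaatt
Tsc22d3: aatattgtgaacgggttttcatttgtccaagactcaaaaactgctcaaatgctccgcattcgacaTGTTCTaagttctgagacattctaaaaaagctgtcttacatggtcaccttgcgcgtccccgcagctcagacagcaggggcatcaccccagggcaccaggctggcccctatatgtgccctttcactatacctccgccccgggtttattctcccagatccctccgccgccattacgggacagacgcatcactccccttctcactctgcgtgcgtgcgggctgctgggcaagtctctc
Sult1a1: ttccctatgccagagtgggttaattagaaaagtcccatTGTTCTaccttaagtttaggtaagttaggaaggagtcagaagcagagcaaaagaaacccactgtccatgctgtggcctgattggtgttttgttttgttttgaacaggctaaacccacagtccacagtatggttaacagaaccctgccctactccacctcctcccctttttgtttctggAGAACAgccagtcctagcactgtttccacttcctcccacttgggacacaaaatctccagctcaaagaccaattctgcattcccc
The windows of Hif3a, Mfsd2a, Klf9, Mertk and Gas6 held no half-site, which says only that these letters are not in these 300 bases.

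Mertk and its ligand Gas6 were both lower in AGR cKO control. Mertk (mm10 chromosome 2, 128698915 to 128803162), a receptor tyrosine kinase gene through which astrocytes and microglia engulf synapses and debris, had 284, 285 and 296 CPM in AGR cKO control, against 429, 512 and 520 CPM in Cre- control. Gas6 (mm10 chromosome 8, 13465374 to 13494535), whose protein bridges phosphatidylserine on the target to Mertk, had 61.9, 62.9 and 57.7 CPM in AGR cKO control, against 106, 108 and 106 CPM in Cre- control. The groups did not overlap in either gene. Both fell in the fit of the 6 control libraries, Mertk by 0.76 ± 0.094 and Gas6 by 0.81 ± 0.063 on the log2 scale (SE of that fit; edgeR adjusted p = 0.0444 and 0.0134). Neither passed in edgeR over all 12, where the SEs were 0.17 and 0.12 (edgeR adjusted p = 0.226 and 0.0818). DESeq2 over all 12 called both (DESeq2 adjusted p = 0.00497 and 6.95e-06). Without Cre- control 1 the log2 fold changes were -0.84 for Mertk and -0.81 for Gas6. Axl and Tyro3, the other receptors of the Mertk family, named here for that kinship, were at 0.11 ± 0.09 and 0.30 ± 0.20, and Pros1, the gene of protein S, another ligand of the family, was at -0.18 ± 0.12. Megf10, an astrocyte engulfment receptor gene outside the family, was at -0.08 ± 0.16. Of 19 engulfment genes tested, 8 were higher and 11 lower, with a median of -0.08 (-0.05 without Cre- control 1). Mertk and Gas6 were the 2 that fell in the fit of 6, where 0.115% of all genes fell.

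Microglia also express Mertk, and their markers differed in the same direction. All 20 microglia and macrophage markers had negative log2 fold changes (median -1.10), and none passed in edgeR over 12 or over 6 libraries. An unadjusted edgeR p under 0.05 was reached by 14 of 20, against 5.94% of all genes in that direction. In 1 of 20, Ptprc, each AGR cKO library lay below each Cre- library, as in 8.39% of all genes tested. Their summed level was 243, 320 and 565 CPM in AGR cKO control and 1282, 444 and 637 CPM in Cre- control. Without Cre- control 1 their median was -0.54, with 20 of 20 still lower, and the log2 fold change of Mertk was -0.84. The part of microglial RNA in the Mertk difference was not tested beyond the covariate values that follow. With the microglial and endothelial levels as covariates no gene passed in edgeR, and the log2 fold changes were -0.54 for Mertk, -0.67 for Gas6, -1.27 for Hif3a, -0.51 for Mfsd2a and -0.40 for Bcl6, against -1.01 for Nr3c1. All 31 genes called among the control libraries kept their sign with these covariates, and 26 were smaller in size. The median of the glucocorticoid-induced list was then -0.34.

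Among the genes of the receptor's own circuit, Fkbp5 is described above. Nr3c2, the gene of the mineralocorticoid receptor, which binds the same hormone with higher affinity, had 52.0, 48.7 and 46.2 CPM in AGR cKO control and 34.0, 33.7 and 40.9 CPM in Cre- control. Its groups did not overlap, and the log2 fold change of 0.44 ± 0.12 did not pass (edgeR adjusted p = 0.261). Hsp90aa1, Hsp90ab1 and Ptges3, which encode the chaperone complex that holds the receptor, were at -0.01 ± 0.08, -0.01 ± 0.13 and 0.03 ± 0.08. Hsd11b1, the gene of the enzyme that regenerates active glucocorticoid, was at 0.07 ± 0.21. Of 18 genes of the receptor, its ligand supply and its cofactors, 5 were higher and 13 lower, with a median of -0.05, and only Nr3c1 passed over all 12 libraries. Without Cre- control 1 in the fit of 6, Nr3c1 and Fkbp5 fell (Fkbp5 at -1.11; edgeR adjusted p = 0.0351).

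Npas2, the gene of a partner of the clock factor BMAL1, had 24.6, 25.1 and 27.5 CPM in AGR cKO control and 40, 47.2 and 48 CPM in Cre- control. It fell in the fit of the 6 control libraries (-0.81 ± 0.095 in that fit, edgeR adjusted p = 0.0372; SE 0.15 and adjusted p = 0.143 over all 12). Per1, a clock gene with a known glucocorticoid response, had 157, 158 and 154 CPM in AGR cKO control and 198, 242 and 274 CPM in Cre- control (-0.61 ± 0.19; edgeR adjusted p = 0.292). Of the 18 clock genes 9 were higher and 9 lower (median 0.00). When Cre- control 1 was left out, 14 were lower and 4 higher (median -0.08), and in the fit of 6 without it Npas2 and Per1 fell (edgeR adjusted p = 0.00448 and 0.00836; 0.987% of all genes fell). Nt5e, which encodes the ectoenzyme CD73 that makes extracellular adenosine, had 3.64, 3.37 and 3.77 CPM in AGR cKO control and 8.59, 7.96 and 8.51 CPM in Cre- control (-1.22 ± 0.13 in the fit of 6, edgeR adjusted p = 0.0372; SE 0.21 and adjusted p = 0.109 over all 12). Slc29a3, an intracellular nucleoside transporter gene, had 44.5, 47.3 and 54.2 CPM in AGR cKO control and 81.6, 105 and 98.1 CPM in Cre- control and also fell in the fit of 6 (-0.96 ± 0.12 in that fit, edgeR adjusted p = 0.0373; SE 0.23 and adjusted p = 0.232 over all 12). Gjb6, the gene of the astrocyte gap junction protein connexin 30, had 187, 195 and 204 CPM in AGR cKO control and 317, 492 and 452 CPM in Cre- control (-1.11 ± 0.32; edgeR adjusted p = 0.275, and 0.0612 over the 6 control libraries). It fell in the fit of 6 without Cre- control 1 (-1.27; edgeR adjusted p = 0.00155). Gja1, the gene of connexin 43, was at -0.11 ± 0.12.

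The other genes that fell among the 6 control libraries were Map7d2 (-1.34), Ky (-1.30), Syt12 (-1.10), Rhou (-1.07), Lrrc8c (-0.93), Prr5 (-0.86), Dok7 (-0.75), Rin2 (-0.71), Lgr6 (-0.68), Slc35e4 (-0.58) and Gm15564, with the log2 fold change in brackets. Syt12 encodes a synaptotagmin, Lrrc8c a subunit of the volume-regulated anion channel, Dok7 an adaptor of the muscle kinase MuSK, and Lgr6 a receptor for R-spondins. Gm15564 is listed at 0 in all 3 AGR cKO control libraries and at 23.2, 17.8 and 23.0 CPM in Cre- control. It overlaps Parp9 and Kpna1, whose log2 fold changes were -0.23 and 0.09, and it was also at 0 in 2 of 3 libraries of each genotype under ESD, so its value is uncertain. In 20 of the 21 lower genes the SD between Cre- libraries was larger than that between AGR cKO libraries. This SD is on the CPM scale, and Cre- control is the group with the higher level in these genes. Among the 10 genes that rose, the SD was larger between Cre- libraries in 4.

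Among the genes that were higher in AGR cKO control, Vcan, the gene of the matrix proteoglycan versican, had 277, 239 and 253 CPM in AGR cKO control, against 111, 123 and 93.1 CPM in Cre- control. It rose in the fit of the 6 control libraries (1.24 ± 0.11 in that fit, edgeR adjusted p = 0.023; 1.23 ± 0.19 and adjusted p = 0.0818 over all 12). Grin1, which encodes the obligate subunit of NMDA receptors, had 16.1, 15.0 and 13.6 CPM in AGR cKO control and 7.52, 7.38 and 6.91 CPM in Cre- control. Grin2b, the gene of an NMDA receptor subunit typical of the young brain, had 45.4, 52.3 and 43.5 CPM in AGR cKO control and 23.3, 26.5 and 19.8 CPM in Cre- control. Both receptor genes rose in the fit of 6 (1.03 ± 0.11 and 1.02 ± 0.12 in that fit; edgeR adjusted p = 0.0372 each). Neither passed in edgeR over all 12, where the SEs were 0.16 and 0.22 (edgeR adjusted p = 0.0818 and 0.206). DESeq2 over all 12 called both (DESeq2 adjusted p = 6.74e-06 and 0.00198). Each AGR cKO library exceeded each Cre- library in the 3 genes.

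Further genes that rose among the 6 control libraries were Fras1 (1.13), S100a10 (1.01), Adamts5 (0.83), Them4 (0.82) and Eepd1 (0.70), with log2 fold changes in brackets. Fras1 encodes a basement membrane protein, Adamts5 a protease that cleaves versican and its relatives, S100a10 a partner of annexin A2, and Them4 a thioesterase. S100a10 had 17.3, 15.5 and 15.2 CPM in AGR cKO control and 8.94, 8.03 and 6.87 CPM in Cre- control. Tnc, the gene of the matrix protein tenascin C, had 752, 639 and 648 CPM in AGR cKO control and 427, 384 and 207 CPM in Cre- control, without overlap (1.00 ± 0.28), and did not pass in edgeR (adjusted p = 0.264). By smallest p, the rule also takes the higher genes Dok6 (0.78), Ap3s1 (0.54), Apba1 (0.45), Gpr37 (0.57), Vipr2 (0.76), Sntb1 (0.53) and Mgat5 (0.62), and the lower genes Irf1 (-0.53), Ivns1abp (-0.40), Pim3 (-0.91), Adgb (-1.26), Hsd17b11 (-0.53), Amd1 (-0.34) and Ralgds (-0.54). Their groups did not overlap, which the rule requires, and none passed in edgeR over 12 or over 6 libraries.

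Neuronal markers were higher in the same AGR cKO libraries as the NMDA receptor genes. Of 19 tested, 18 were higher (median 0.48, and 0.67 without Cre- control 1). Groups did not overlap in 12, 11 of them higher (8.54% of all genes were higher without overlap) and Camk2a lower. Grin1, which is on that list, was the 1 that rose in the fit of 6 (0.0547% of all genes did). Slc17a7, a vesicular glutamate transporter gene, was at 1.51 ± 0.33 and Syt1, a synaptic vesicle gene, at 1.21 ± 0.34, neither called in edgeR over 12 or over 6 libraries. In the fit of the 5 control libraries without Cre- control 1, Slc17a7 rose (1.62; edgeR adjusted p = 0.0187). The markers summed to 209 to 219 CPM in AGR cKO control and 160 to 191 CPM in Cre- control, and the part of neuronal RNA in the values of Grin1 and Grin2b was not tested.

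Cholesterol synthesis genes were higher by small steps. Of 23 tested, 21 were higher and 2 lower (median 0.24), 16 were higher without overlap (8.54% of all genes), and 13 of the 21 had an unadjusted p under 0.05 (4.28% of all genes, higher). None passed in edgeR over 12 or over 6 libraries and 3 did in DESeq2 (Hmgcs1, Tm7sf2 and Acat2; 0.473% of all genes were called higher). Hmgcs1, which encodes the synthase that feeds the mevalonate pathway, had 1367, 1301 and 1164 CPM in AGR cKO control and 803, 892 and 990 CPM in Cre- control (0.51 ± 0.12; edgeR adjusted p = 0.235). Tm7sf2, a sterol reductase gene, was at 0.48 ± 0.12, Lss, the gene of lanosterol synthase, at 0.37 ± 0.10, and Acat2, the gene of a thiolase that starts the pathway, at 0.35 ± 0.09. Srebf2, the gene of the pathway's master regulator, was at 0.04 ± 0.09. The list summed to 5659 to 6187 CPM in AGR cKO control and 4716 to 5350 CPM in Cre- control, and its median was 0.17 without Cre- control 1, with 20 of 23 higher.

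Astrocyte-secreted factors that act on synapses went both ways. Of 20 tested, 11 were higher and 9 lower (median 0.08, and 0.12 without Cre- control 1). Lgi1, which encodes a secreted protein that tethers AMPA receptors, had 6.28, 7.19 and 8.82 CPM in AGR cKO control and 13.9, 17.8 and 19.9 CPM in Cre- control (-1.21 ± 0.30; edgeR adjusted p = 0.235), and fell in the fit of 6 without Cre- control 1 (-1.34; edgeR adjusted p = 0.011). Sparc, the gene of an antagonist of synapse formation, had 793, 868 and 956 CPM in AGR cKO control and 1417, 1104 and 1198 CPM in Cre- control (-0.51 ± 0.13; edgeR adjusted p = 0.253). Nlgn2, an adhesion gene of inhibitory synapses, was at 0.27 ± 0.08. The glutamate transporter genes Slc1a2 and Slc1a3 were at -0.10 ± 0.19 and -0.07 ± 0.13, and the potassium channel gene Kcnj10 at 0.04 ± 0.10. The water channel gene Aqp4, at 0.49 ± 0.15, and the cystine transporter gene Slc7a11, at 0.53 ± 0.17, were higher without overlap and did not pass in edgeR (adjusted p = 0.302 and 0.309). Of 18 genes of glutamate and potassium handling, 8 were higher and 10 lower (median -0.04, and -0.12 without Cre- control 1).

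Of 20 markers of astrocytes as such, 5 were higher and 15 lower, with a median of -0.10. When Cre- control 1 was left out, 17 of 20 were lower and the median was -0.24. They summed to 52995 to 56782 CPM in AGR cKO control and to 49538, 66099 and 63942 CPM in Cre- control, where only Cre- control 1 lay below the AGR cKO libraries. Aldoc, an astrocyte aldolase gene, had 1982, 2108 and 2228 CPM in AGR cKO control and 2286, 3436 and 3749 CPM in Cre- control (-0.58 ± 0.18; edgeR adjusted p = 0.289). Aldoc fell in the fit of 6 without Cre- control 1 (-0.76; edgeR adjusted p = 0.0106). Pan-reactive genes, which mark astrocyte activation, were 7 higher and 6 lower of 13 (median 0.09, and 0.21 without Cre- control 1).

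**Figure D3:**
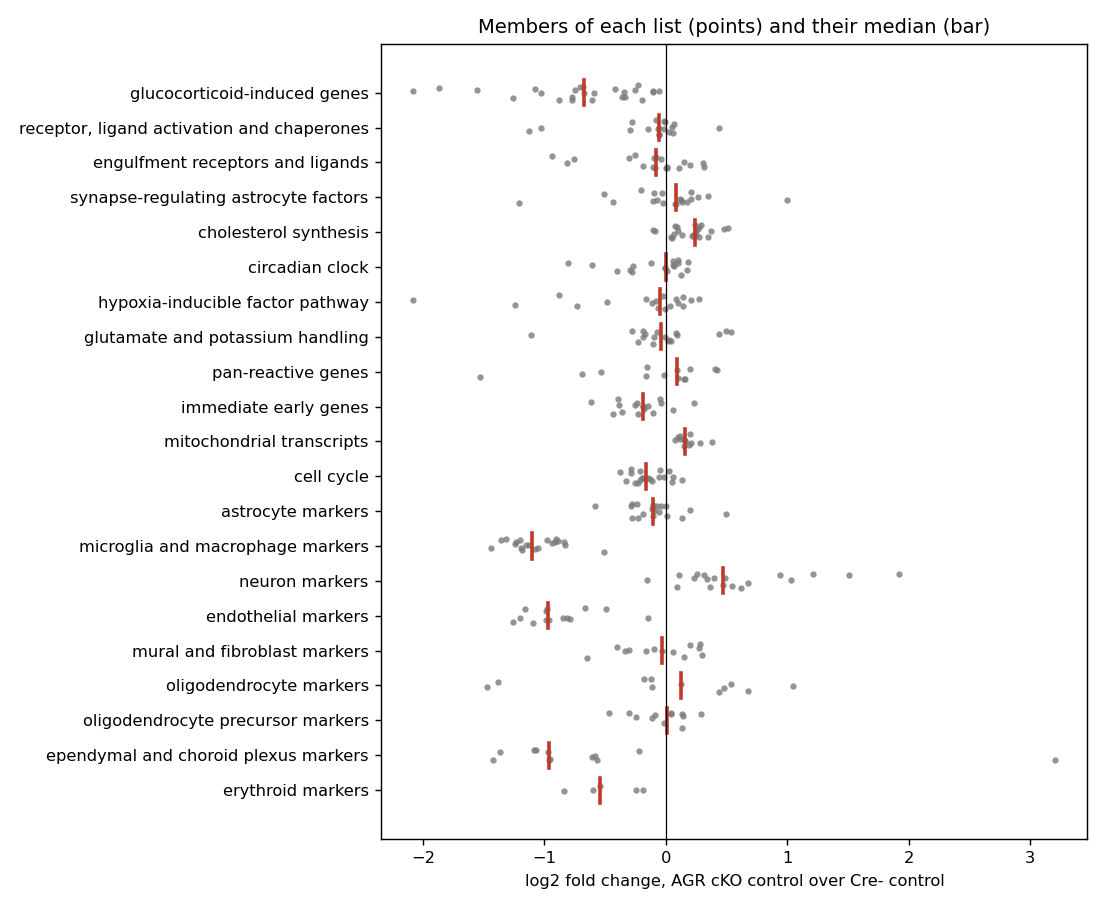
Log2 fold change, AGR cKO control over Cre- control, of each tested member of 21 gene lists, with the median of each list as a bar. The glucocorticoid-induced genes lie wholly below 0 with a median of -0.67, cholesterol synthesis sits at 0.24, and microglial, endothelial and ependymal markers lie near -1.

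Further marker groups moved with genotype or with Cre- control 1. All 14 endothelial markers had negative log2 fold changes (median -0.97) and none passed in edgeR. Without Cre- control 1 their median was -0.01, with 7 of 14 on each side. Of 12 markers of ependyma and choroid plexus, 11 had negative log2 fold changes (median -0.96, and -0.90 without Cre- control 1), and DESeq2 called 3 lower (1.09% of all genes). Among the 12, Ccdc153 had 9.68, 6.47 and 3.98 CPM in AGR cKO control and 22.9, 20.1 and 11.0 CPM in Cre- control. The list summed to 47.7 to 88.9 CPM in AGR cKO control and 83.7 to 144 CPM in Cre- control. Cell cycle genes were lower in 16 of 20 (median -0.16), a direction that turned to 0.35 without Cre- control 1. Mitochondrial transcripts were higher in 13 of 13 (median 0.16, and 0.06 without Cre- control 1), and erythroid genes lower in 5 of 5 (median -0.54, and -0.07 without Cre- control 1). Immediate early genes were lower in 15 of 17 (median -0.19, and -0.25 to -0.05 leaving out any 1 of the 12 libraries). They summed to 4480 to 5102 CPM in AGR cKO control. In Cre- control they summed to 4504, 4968 and 7210 CPM, the last in Cre- control 3. Mural and fibroblast markers (6 of 13 higher, median -0.03, and 0.34 without Cre- control 1), oligodendrocyte markers (6 of 11 higher, median 0.13, and -0.05 without Cre- control 1) and precursor markers (6 of 12 higher, median 0.01, and 0.08 without Cre- control 1) had members on both sides. The part of these cells in the gene differences above was not tested beyond the covariate values given.

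**Figure D4:**
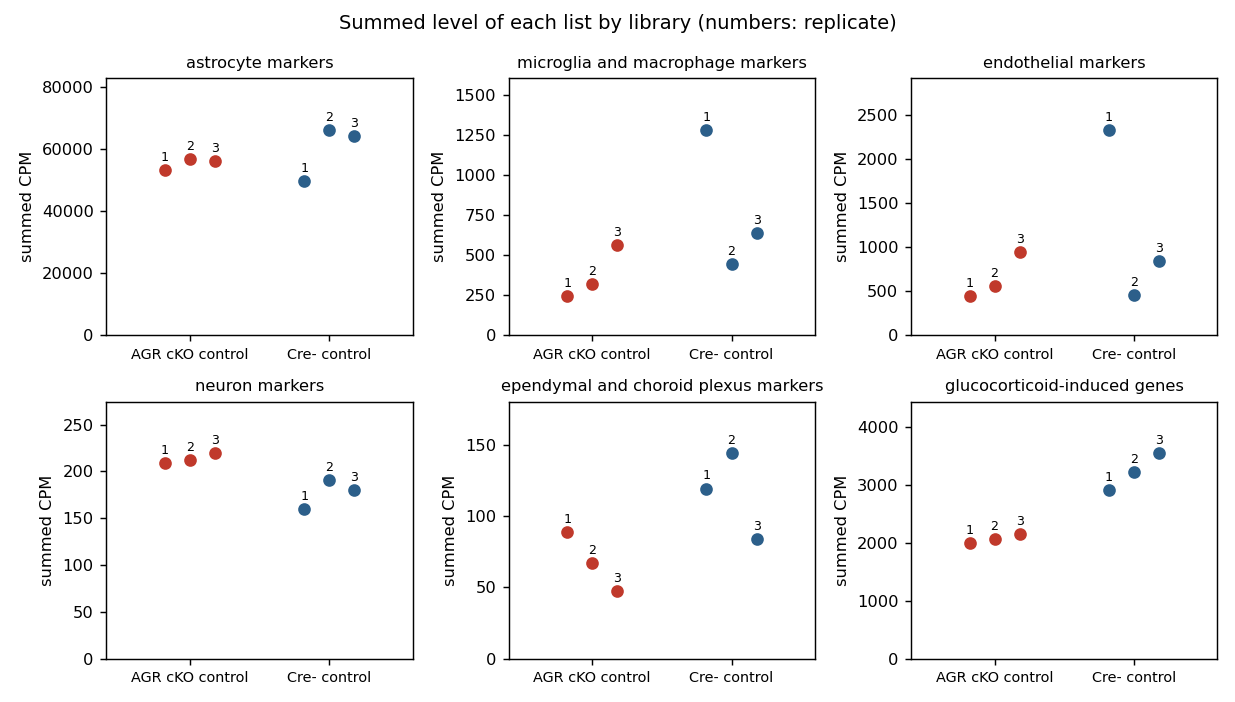
Summed CPM of 6 gene lists in each control library, AGR cKO control to the left of Cre- control, with replicate numbers beside the points. Glucocorticoid-induced genes (1999 to 2143 against 2904 to 3538 CPM) and neuron markers do not overlap between the groups, and Cre- control 1 is the highest library for endothelial markers (2336 CPM) and for microglial ones (1282 CPM).

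The same genotype difference was also measured in the libraries of separated pups. Of the 31 genes called among the control libraries, 30 had a value in a fit of the 6 ESD libraries alone. In that fit 29 had the same sign and 24 of these an unadjusted p under 0.05, against 14.9% of all genes with such a p in either direction, and no gene passed the correction (0 of 18420). In the fit over all 12 libraries, 15 of the 31 were called under ESD, where 1.04% of all genes were. The spread in that fit takes in the control libraries that chose the 31, so its ESD calls are not independent of the choice. Hif3a was at -2.65, Mertk at -0.97, Gas6 at -0.62, Vcan at 1.18, Zfp868 at 1.00 and LOC115486910 at 2.20 under ESD, each called in edgeR. Cre- ESD 3 was the highest of the 12 libraries in 18 of the lower genes. Without it 28 of 31 had the same sign and 8 were called, where 25 genes were called in all. Among the 8 were Hif3a at -2.14 and Vcan at 0.95. Mertk at -0.76 and Gas6 at -0.43 no longer passed (edgeR adjusted p = 0.0739 and 0.0697), and Bcl6 and Slc35e4 were near 0 (0.06 and -0.08).

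The exception in sign was Lgr6, which had 65.7, 64.9 and 56.3 CPM in AGR cKO control and 107, 93.8 and 98.9 CPM in Cre- control, but 119, 68.4 and 83.4 CPM in AGR cKO ESD and 82.3, 56.6 and 76.9 CPM in Cre- ESD. Its log2 fold changes were -0.68 ± 0.18 in control and 0.33 under ESD. No gene passed the test of the difference between the genotype effects in edgeR, Lgr6 included (unadjusted p = 0.00229, adjusted p = 0.999), 860 had an unadjusted p under 0.05 (4.49%), and DESeq2 called 7 of 26012 (0.0269%). Zbtb16 was at -0.25 ± 0.34 in control and -2.49 under ESD (unadjusted p of the difference 0.00055, edgeR adjusted p = 0.98). Grin2b was at 1.02 in control and 0.33 under ESD (unadjusted p = 0.0441, edgeR adjusted p = 0.999). The neuron markers as a group had a median of 0.48 in control and -0.38 under ESD, and the glucocorticoid-induced genes -0.67 and -0.84. Microglial markers had medians of -1.10 in control and -1.08 under ESD, and endothelial markers -0.97 and -1.02. All 20 microglial and all 14 endothelial markers were lower under ESD too. The part of these cells in the signs shared by the 2 comparisons was not tested.

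**Figure D5:**
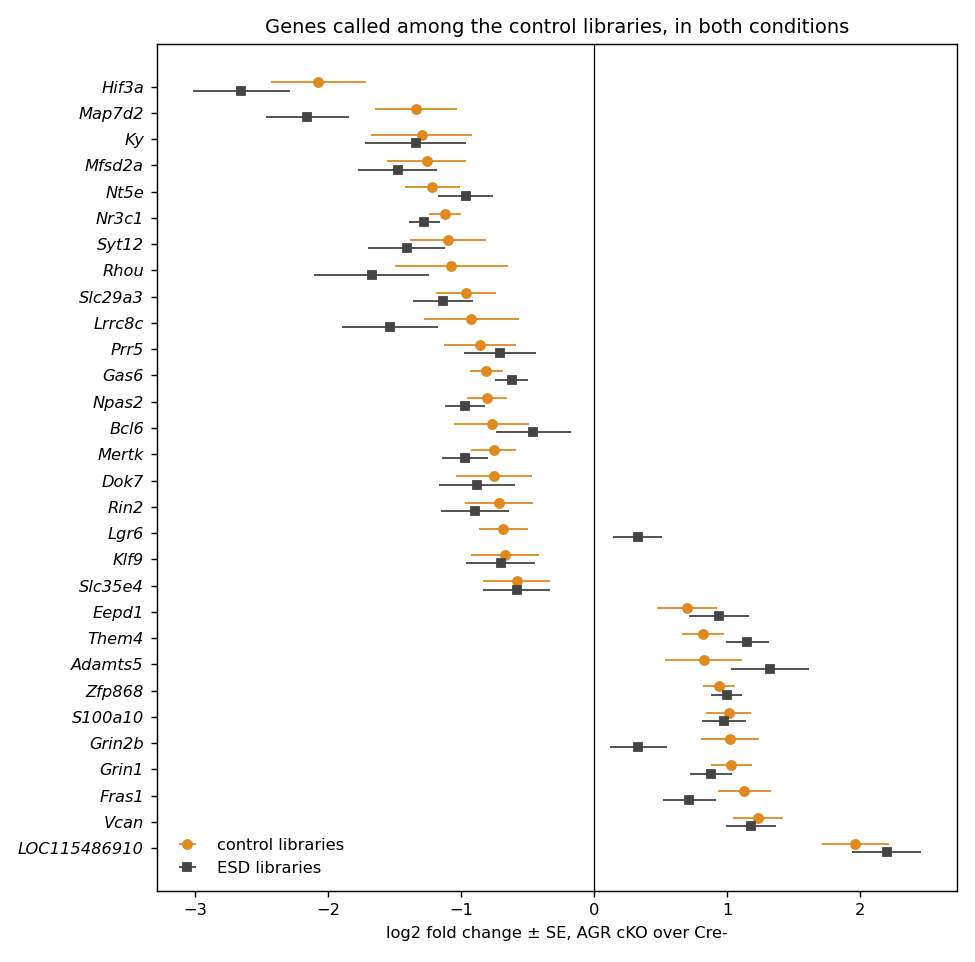
Log2 fold change with its SE, AGR cKO over Cre-, of 30 of the 31 genes called among the control libraries (Gm15564, listed at 0 in one group, is left out), in control libraries (circles) and in ESD libraries (squares), both from the fit over all 12 libraries. Lgr6 alone lies on opposite sides of 0, at -0.68 and 0.33.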

How the data were processed

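RNA of 12 mouse libraries, 3 in each of 4 groups, was analysed from the authors' deposited gene table of raw read counts and TPM. Reads came from a stranded mRNA kit, per the labels' protocols. Per the submitters' processing notes, the build was mm10 and the tools included StringTie 1.3.4b, HISAT2 2.1.0, Trimmomatic, Bowtie2, HISAT and DESeq2, with no roles given. Whether counting used strand is not given in the sources used here. The deposited counts were tested with edgeR 4.0.16 (R 4.3.3; quasi-likelihood, TMM scaling, filterByExpr, 1 mean per group, all 12 libraries, 8 residual degrees of freedom), with Benjamini-Hochberg adjustment and a threshold of 0.05. The deposited TPM values were used for levels between genes and with limma 3.58.1 as an alternative; DESeq2 1.42.0 was another. CPM is each count scaled to library size and composition. The fits were tested on simulated data. Members and gene lists were chosen with earlier results of these data known.

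Genes named are Nr3c1, Mertk, Gas6, Fkbp5, Tsc22d3, Sgk1, Hif3a, Zbtb16, Aldh1l1, all called genes, the 12 smallest p-values in each direction among genes averaging at least 5 CPM whose groups did not overlap, and up to 4 members of each list. Other named genes, such as Axl, Tyro3, Pros1, Megf10, Pdk4, the chaperones, Gja1, Srebf2, Slc1a2, Slc1a3 and Kcnj10, were chosen after their values were seen. Promoter windows come from RefSeq GRCm38.p6.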

Additional observations from a re-analysis of the deposited data

How the results depend on the processing

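The count of genes called between AGR cKO control and Cre- control, 3 over all 12 libraries, was 31 with the 6 control libraries alone, 265 with DESeq2 (80 higher, 185 lower), 556 with DESeq2 on the 6 control libraries (196 higher, 360 lower; added after seeing the data), 8 at an adjusted p under 0.1 and 0 with the microglial and endothelial covariates. It was 2 or 3 with TPM in limma, median-of-ratios scaling, no filter, a 5 CPM filter and robust moderation. Leaving out 1 library gave 0 to 63 over all 12 libraries (63 without Cre- ESD 3) and 0 to 230 in the fit of the 6 control libraries (230 without Cre- control 1, 15 without Cre- control 2, 1 without each AGR cKO control library). Of these, leaving out a control library other than Cre- control 1 in the fit of 6 was added after seeing the data. The ESD count, 200 over all 12 libraries, was 791 with DESeq2, 100 without a filter, 0 with the covariates and 2 to 280 leaving out 1 library. The interaction count, 0 in edgeR, was 7 with DESeq2 and 0 in each fit that left out 1 library. With the replicate number as a block the control count was 2, the ESD count 244 and the interaction count 0; same-numbered control libraries did not deviate together (correlations -0.10, 0.01 and 0.05), so the numbers are not read as pairs. Zbtb16 turned to 0.62 with the covariates. Aldh1l1, at 0.00, was at -0.099 without Cre- control 1, -0.018 without AGR cKO control 2 (-0.092 and -0.014 in the fits of 6), 0.089 at most without another library, and -0.15 with the covariates. The causes were not tested. With 3 libraries a group, an exact permutation test of 1 gene cannot go below p = 0.1.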

Other observations

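Genes of the ciliary axoneme were lower in AGR cKO control, a group chosen after its values were seen. Of 15 axonemal dynein heavy chain (Dnah) genes tested, 12 had negative log2 fold changes (median -0.76), and DESeq2 called 5 of them lower, against 1.09% of all genes. They summed to 198, 162 and 130 CPM in AGR cKO control and 264, 335 and 192 CPM in Cre- control, and AGR cKO control 1 exceeded Cre- control 3. Of 32 cilia and flagella associated (Cfap) genes, 29 were lower (median -0.75) and DESeq2 called 5 of them. They summed to 386, 324 and 275 CPM in AGR cKO control and 424, 531 and 346 CPM in Cre- control. Under ESD the medians were -0.60 for Dnah and -0.58 for Cfap genes. Ependymal markers were lower in the same comparison, and their part in these values was not tested.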
